A study of Mus musculus with 105 samples.

Results

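Skin was compared with 11 other tissues in a panel of healthy mouse organs. The 4 skin libraries were taken by their tissue label from 105 libraries in all, and set against 44 libraries, 4 each of stomach, colon, liver, kidney, lung, heart, brain, ovary and the lymphoid organs thymus, spleen and lymph node (LN). Every one of these 48 libraries came from a female C57BL/6 mouse of the wild type with no treatment named, and the other libraries of the series are tumour lines and cultured melanocytes. The study asked about transcripts in which an exon is spliced to a transposable element. Its healthy panel also gives a count for each gene, and those counts are what is compared here. Pieces of whole tissue were kept in RNAlater and homogenised, and poly(A) RNA was sequenced with a stranded Illumina kit. The labels name no age, no body site for the skin, and do not say whether each library is from a different animal, so p-values measure the spread between these libraries.

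The skin label was checked against its markers before anything else. Krt2, a keratin of the upper living layers of the epidermis, stood at 9936, 11353, 12470.1 and 13613 counts per 1000000 library counts (CPM) in skin replicates 1 to 4, while the highest of the 44 other libraries held 2.67 CPM, a brain library. The skin libraries held 53591239 to 76523900 counts, and all 48 held 53591239 to 254103370. In the shallowest skin library 1 CPM is 53.6 counts, and 3 counts, the limit that a count of 0 allows, are 0.011 CPM over the 4 skin libraries together, which covers counting error only. No 2 skin libraries were identical, and their log2 CPM values correlated at 0.987 to 0.993 over the 6 pairs. Skin replicate 2 stands apart because it holds transcripts of the stomach mucosa. Pgc, the pepsinogen of gastric chief cells, was at 0.366, 906, 0.383 and 0.224 CPM in the 4 skin libraries and averaged 105131 CPM in stomach. The summed level of 14 stomach mucosa genes was 3.55, 1439, 3.29 and 3.65 CPM, so that replicate 2 carried 0.665% of the mean stomach sum. That list was added after the values had been seen, and its part in other results was not tested; counts without replicate 2 are given beside the main ones.

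Skin is built from a stratified epidermis over a collagen-rich dermis, with hair follicles, sebaceous glands, nerves, vessels and resident immune cells, and in rodents it lies on a sheet of striated muscle, the panniculus carnosus. Keratinocytes divide in the basal layer, where they make the keratin pair Krt5 and Krt14 and are tied to the basement membrane by hemidesmosomes. As they move up they switch to Krt1 and Krt10, and then to the proteins and lipids of the cornified envelope, the dead outer barrier that keeps water in. Many of the envelope genes lie side by side in the epidermal differentiation complex, and the keratin genes lie in a pair of clusters of their own.

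The sequences just before the start sites of 6 genes higher in skin than in each other tissue, chosen after their values had been seen, are shown because their products make up this barrier: a pair of keratins, 3 envelope proteins of the epidermal differentiation complex, and Calm4, a calmodulin-like protein of differentiating keratinocytes. Each is the 250 bases that end at the base before the RefSeq start (GRCm38.p6, the assembly of the mm10 build), read 5′ to 3′ on the gene's strand. Capitals mark a TATA-like match (TATANA on the gene's strand, 20 to 40 bases before the start) or an AP-1 match (TGANTCA, either strand); no match of GCCNNNGGC, the AP-2 consensus, was found in these 6 windows. The Krt2 window is chr15:101818170-101818419 on the minus strand, that of Krt10 chr11:99389365-99389614 on the minus strand, and that of Lor, the loricrin gene, chr3:92083143-92083392 on the minus strand. Flg2, filaggrin-2, has chr3:93197023-93197272 on the plus strand, Lce1m, a late cornified envelope protein, chr3:93019062-93019311 on the minus strand, and Calm4 chr13:3837507-3837756 on the plus strand.

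Krt2: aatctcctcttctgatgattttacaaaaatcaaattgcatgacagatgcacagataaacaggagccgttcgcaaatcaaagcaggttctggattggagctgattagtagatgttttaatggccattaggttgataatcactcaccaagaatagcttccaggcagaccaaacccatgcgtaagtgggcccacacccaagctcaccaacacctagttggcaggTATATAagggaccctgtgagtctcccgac
Krt10: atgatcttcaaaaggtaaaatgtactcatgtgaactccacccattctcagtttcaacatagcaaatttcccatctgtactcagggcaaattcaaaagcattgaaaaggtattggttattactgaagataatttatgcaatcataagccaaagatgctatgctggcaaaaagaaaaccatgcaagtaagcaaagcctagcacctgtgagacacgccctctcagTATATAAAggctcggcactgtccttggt
Lor: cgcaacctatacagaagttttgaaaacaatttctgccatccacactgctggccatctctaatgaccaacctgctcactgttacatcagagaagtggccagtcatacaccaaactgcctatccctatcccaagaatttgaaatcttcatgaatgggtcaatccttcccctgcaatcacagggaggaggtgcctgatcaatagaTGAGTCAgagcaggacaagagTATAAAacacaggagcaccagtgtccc
Flg2: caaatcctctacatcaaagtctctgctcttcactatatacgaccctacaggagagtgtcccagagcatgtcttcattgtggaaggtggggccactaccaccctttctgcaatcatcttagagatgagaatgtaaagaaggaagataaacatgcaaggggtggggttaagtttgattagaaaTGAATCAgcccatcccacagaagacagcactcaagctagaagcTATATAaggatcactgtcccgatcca
Lce1m: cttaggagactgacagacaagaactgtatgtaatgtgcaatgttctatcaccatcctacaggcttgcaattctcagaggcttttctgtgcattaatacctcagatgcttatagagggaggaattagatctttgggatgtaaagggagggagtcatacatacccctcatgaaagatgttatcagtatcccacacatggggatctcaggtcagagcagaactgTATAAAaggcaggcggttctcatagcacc
Calm4: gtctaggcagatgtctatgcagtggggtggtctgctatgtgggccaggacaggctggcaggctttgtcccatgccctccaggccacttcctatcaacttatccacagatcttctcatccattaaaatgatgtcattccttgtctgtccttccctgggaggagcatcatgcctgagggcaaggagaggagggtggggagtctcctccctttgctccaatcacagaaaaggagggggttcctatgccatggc

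The TATA-like match begins 29 bases before the start in Krt2, 28 in Krt10, 27 in Lor, 26 in Flg2 and 29 in Lce1m, and the AP-1 match begins 48 bases before it in Lor and 69 in Flg2. Calm4 has no match in these letters. Among the 250-base windows of 27025 genes in the same table, 3.07% hold TATANA at that distance and strand, 6.87% hold TGANTCA anywhere and 13.6% hold GCCNNNGGC. The table matched 446 of the 595 protein-coding genes that were higher in skin than in each other tissue. That is too few for a check over the whole set, so no share of matches over the set is given. The 6 windows shown were picked by hand and do not stand for the set. A match is a run of letters, not a measured binding site.

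Against the mean of the 11 other tissues, 7982 of 26242 genes tested (30.4%) were higher in skin and 7196 (27.4%) were lower, by edgeR's quasi-likelihood test at a Benjamini-Hochberg adjusted p under 0.05. Over all genes the median log2 difference from that mean was -0.09. A gene was called highest in skin when it passed this test, lay at least 2 log2 units above the mean of the others, and had its highest mean CPM in skin; 1458 genes (5.56%) did. A stricter call asked that the gene exceed each of the 11 tissues, with the largest of its 11 p-values adjusted over all genes; 753 genes (2.87%) passed, and 595 of them code for protein. These 753 genes took 13.5% to 15.1% of all counts in the skin libraries and 0.785% to 1.11% in stomach. Their median fold over the next tissue was 7.76, with 674 genes at 2-fold or more and 50 at 100-fold or more. That next tissue was thymus for 155 genes, ovary for 140 and stomach for 117. Without skin replicate 2 the filter, run anew, passed 26927 genes. There 1480 genes were called highest in skin and 712 higher than in each tissue, and 1426 and 705 of these are shared with the main calls.

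Levels are given in CPM of the whole library, and a fold over another tissue is the ratio of mean CPM. The log2 differences come from edgeR's fit, which also rescales the libraries (TMM factors of 1.20 to 1.25 in skin). In that fit the mean of the other tissues is a mean of log2 levels, with each tissue weighted equally. The log of a CPM fold and the fitted difference are therefore not the same number. A gene abundant in a single other tissue and scarce in the rest can lie above the fitted mean while its mean CPM in skin is far under that of the other libraries. Gene groups are described by how many of their tested members were called, beside the shares above for all genes, and by the median over members of the ratio of mean CPM in skin to mean CPM in the 44 other libraries. That median ratio was 0.796 over all genes tested. A gene made in skin alone passes the filter on low counts through its skin libraries, so such a count describes the members that were tested. In whole tissue, more cells of a type and more RNA per cell cannot be told apart.

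**Figure D1:**
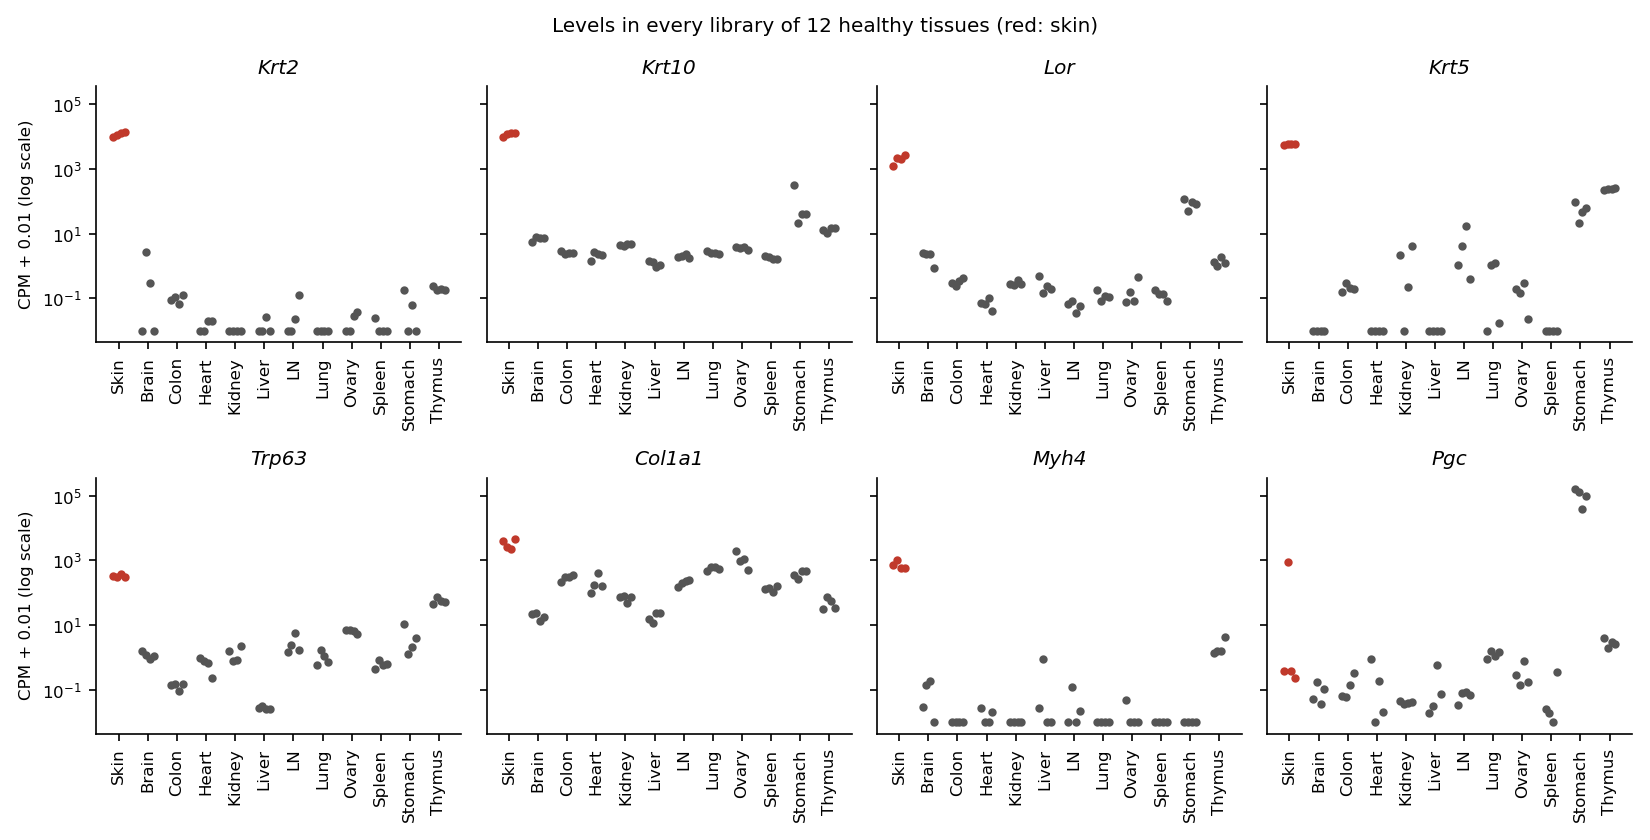
CPM + 0.01 on a log axis in each of 48 libraries (points) of 12 tissues for 8 genes, with skin in red. Krt2, Krt10, Lor, Krt5 and Trp63 are highest in the 4 skin libraries, Krt5 and Trp63 are next highest in thymus, and Pgc shows the single skin library at 906 CPM.

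The keratins of the epidermis were the most abundant skin transcripts for their length. Per kilobase of exon, the mean level was 5494 CPM for Krt10, 4532 for Krt2, 2554 for Krt5 and 2379.5 for Krt14, the first 4 places among nuclear protein-coding genes; the next were Rplp1, a ribosomal protein, and Eef1a1, a translation factor. All 10 suprabasal and basal keratins tested were higher in skin than in each other tissue, where 2.87% of all genes were, and their median ratio to the other tissues was 521. Krt10, the suprabasal partner of Krt1, was at 9628, 11487, 12579 and 12760.5 CPM in skin replicates 1 to 4. Its next tissue was stomach, with 320.3, 21.96, 41.1 and 40.1 CPM, so a single stomach library held most of the signal there and even that library lay far under skin (log2 difference 6.12, SE 0.48, edgeR adjusted p = 8.37e-14). Krt2 was 16038-fold above its next tissue, brain, where the level came from 2.67 CPM in 1 library.

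The basal pair lay within narrower ranges over the 4 skin libraries than Krt10 and Krt2 did. Krt5 was at 5267, 5729, 5732 and 5717 CPM in skin, and its next tissue was thymus at 217, 239, 245 and 249 CPM, 23.6-fold lower (log2 difference 4.66, SE 1.12, edgeR adjusted p = 0.000642). Krt14, its partner, was at 4316, 3925, 4438 and 4054 CPM in skin and 69.1-fold lower in thymus (log2 difference 6.22, SE 0.84, edgeR adjusted p = 3.26e-08). Thymic epithelium is known to make both. Krt15, a keratin of basal and bulge cells, stood at 1971, 1811, 1615 and 1939.6 CPM, 114-fold over stomach (log2 difference 6.13, SE 0.85, edgeR adjusted p = 1.22e-07). Krt1 was at 611, 994, 1251 and 915 CPM against 398, 44.05, 96.6 and 85.5 in stomach, the smallest margin among these 4 and Krt10 (6.04-fold, log2 difference 1.91, SE 0.41, edgeR adjusted p = 0.000108). Krt24 was at 277, 348.1, 334.9 and 303.01 CPM and did not exceed 1.42 CPM in any of the 44 other libraries. Krt77 was at 258, 710.1, 626 and 533 CPM, lowest in replicate 1.

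Keratins of wounded and mucosal epithelium split between skin and stomach. All 6 tested were above the mean of the 11 other tissues, which is a mean of log2 levels, and 3 were highest in skin. Only Krt6a passed the test against each tissue (edgeR adjusted p = 0.000966), at 53.4, 57.0, 70.3 and 51.3 CPM in skin. Krt16 was at 13.6, 20.003, 35.9 and 16.6 CPM, above every other library, but did not pass that stricter test (edgeR adjusted p = 0.0922). Krt17 was at 258, 318.3, 312.8 and 322.8 CPM in skin and 194 to 253.5 CPM in thymus, a difference not called (log2 difference 0.55, SE 0.56, edgeR adjusted p = 0.385). Krt4 and Krt13, a keratin pair of mucosal epithelium, were at 1.54, 2.48, 1.26 and 1.69 CPM and 0.392, 1.62, 0.538 and 0.336 CPM in skin. Both were far higher in stomach, at 183, 132, 323.2 and 303.1 CPM for Krt4 (log2 difference -7.76, SE 0.46, edgeR adjusted p = 1.29e-15) and 256, 196.3, 407 and 359 CPM for Krt13 (log2 difference -9.52, SE 0.62, edgeR adjusted p = 4.82e-13). Krt13 was highest in skin replicate 2, the library with stomach transcripts.

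Genes of the cornified envelope were higher in skin throughout their list. All 30 tested were above the mean of the other tissues, where 30.4% of all genes were, 25 were highest in skin and 21 were higher than in each tissue; the median ratio was 119. Lor, the main structural protein of the envelope, was at 1248, 2192, 2072 and 2674 CPM in skin and 118, 48.96, 97.4 and 84.8 CPM in stomach, its next tissue (23.4-fold, log2 difference 3.85, SE 0.35, edgeR adjusted p = 4.59e-12). Replicate 1 held the lowest level of Lor and the other 3 skin libraries were closer together. Calm4 was at 1126, 1002, 1679 and 1096 CPM, 224-fold over stomach (log2 difference 7.11, SE 0.38, edgeR adjusted p = 7.21e-16). Krtdap, a small secreted protein of differentiating keratinocytes, was at 919, 1201, 1282 and 1189 CPM and 16.4-fold over stomach (log2 difference 3.36, SE 0.32, edgeR adjusted p = 8.31e-11). Dmkn, another secreted protein of the upper layers, was at 1618, 2405, 2784 and 2501 CPM, again lowest in replicate 1, and 41.9-fold over stomach (log2 difference 4.73, SE 0.69, edgeR adjusted p = 2.31e-07). The filaggrin-type genes, whose products bundle keratin filaments, were also lowest in replicate 1. Flg2 was at 279, 381, 525 and 409.7 CPM and at most 0.270 CPM elsewhere, Hrnr, hornerin, was at 188, 245, 422 and 286 CPM, and Flg, filaggrin, was at 50.8, 83.5, 146 and 111 CPM.

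Members of the envelope list that were not highest in skin were Rptn, Tchh, Tchhl1, Tgm3 and Hal. Rptn, repetin, averaged 13.6 CPM in skin and 41.2 CPM in stomach. Tgm3, a transglutaminase that cross-links envelope and hair proteins, averaged 73.7 CPM in skin and 376 CPM in colon. Hal, the histidine ammonia-lyase that makes the sunscreen urocanic acid from filaggrin's histidine, averaged 315.8 CPM in skin and 824 CPM in liver. Tgm1, the membrane-bound transglutaminase of keratinocytes, was highest in skin at 53.9, 95.2, 111 and 87.3 CPM but did not pass against each tissue (edgeR adjusted p = 0.19), with spleen next at 51.7 CPM. Casp14, a caspase that processes filaggrin, was highest in skin at 37.1, 49.9, 79.2 and 63.4 CPM and 7.32 CPM in colon.

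The late cornified envelope and small proline-rich families, both in the epidermal differentiation complex, were both above the mean of the other tissues. All 21 late cornified envelope genes tested were above the mean of the others, 17 were highest in skin and 15 passed against each tissue, with a median ratio of 322.2. Lce1m was at 266, 404, 407 and 483 CPM and 271-fold over stomach (log2 difference 7.42, SE 0.69, edgeR adjusted p = 1.9e-07), and Lce1a1 was at 158, 209, 263 and 266 CPM and 39.8-fold over stomach (log2 difference 4.61, SE 0.30, edgeR adjusted p = 2.08e-10). These genes are near copies of each other, so how the counting split reads among them is uncertain. Of 14 small proline-rich genes tested, 5 were highest in skin and 4 passed against each tissue, with a median ratio of 4.06. Sprr1b was at 6.65, 12.8, 42.0 and 10.5 CPM, highest in replicate 3, and 33.9-fold over thymus (log2 difference 5.21, SE 0.59, edgeR adjusted p = 1.27e-06). Sprr1a was at 53.3, 94.1, 83.5 and 83.7 CPM in skin and 84.6, 106, 235 and 119 CPM in stomach, where it was higher by the test although the libraries overlap (log2 difference -1.46, SE 0.62, edgeR adjusted p = 0.0425). Sprr2a3 was at 0.466 to 3.53 CPM in skin and 131 CPM in colon.

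Genes higher in skin than in each tissue lay in runs along the genome (mm10 coordinates; the 9 stretches were chosen after the values had been seen and carry no test). Between S100a1 and S100a10 (chr3:90511034-93564643), the epidermal differentiation complex, 69 genes were tested and 33 passed, or 47.8% against 2.87% of all genes. The exceptions in that stretch were mostly S100 and Sprr genes, with Lce3a, Lce3b, Lce3e and Lce3f. The complex summed to 5247, 7394, 8047 and 8208 CPM in skin and 2188 CPM in stomach. In the type II keratin stretch (chr15:101347444-102032027, Krt80 to Krt18) 10 of 26 passed, and in the type I stretch (chr11:99232761-100269871, Krt222 to Krt42) 10 of 28 did. Smaller families formed runs too. The 7 tested genes between Aadacl3 and Gm438 (chr4:144453771-144786583), a family named after arylacetamide deacetylase, all passed and summed to 112, 81.1, 111 and 102 CPM in skin against 0.131 CPM in thymus, the next tissue. Of 11 Serpinb genes (chr1:106861173-107610484), which encode protease inhibitors, 7 passed. Of 11 Skint genes (chr4:111919392-114245028), immunoglobulin-like genes of skin and thymus of which Skint1 is needed for epidermal T cells, 7 passed too. The kallikrein stretch from Klk14 to Klk5 (chr7:43690418-43851181) held 6 of 10, the interleukin 36 stretch (chr2:24153161-24351494) 4 of 6, and the Mrgpr receptor stretch (chr7:47185707-48643811) 7 of 8. All these counts are of tested genes. The Mrgpr stretch holds 15 protein-coding genes and the type I keratin stretch 68, and those with too few counts were not tested. A gene made in skin alone passes that filter through its skin libraries.

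The genes whose levels most resembled those of Krt2 over the 48 libraries were Skint5, Serpinb6d, Flg2, Krtap3-2, Aadacl4, Calm5, Dgat2l6 and Gm13178, with Pearson correlations of log2(CPM + 1) from 0.995 to 0.997 among 10871 genes that averaged 10 CPM or more in skin. These correlations describe the contrast of 4 skin libraries with 44 others. All genes were counted in the same libraries, so they share the depth and processing of each library. Serpinb6d, a protease inhibitor, was at 115, 87.0, 97.1 and 127 CPM in skin and at most 0.0153 CPM elsewhere. Skint5 was at 33.2, 36.8, 44.5 and 41.8 CPM, and its next tissue, thymus, held a single count in 4 libraries, which puts the ratio between 2929 and 644750.0 (95% counting interval). Calm5, a neighbour of Calm4 in the calmodulin-like family, was at 93.5, 71.9, 89.6 and 74.2 CPM, 389.8-fold over lymph node (log2 difference 8.66, SE 0.37, edgeR adjusted p = 3.25e-13).

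Stomach was examined on its own because the mouse forestomach has a keratinised squamous lining. Against stomach 7671 genes (29.2%) were higher in skin and 7783 (29.7%) were lower. Among genes highest in skin with at least 10 CPM there, those nearest to stomach were Elovl7, Ncmap, Mst1r, Ly6g6e and Plek2. Elovl7, a fatty acid elongase, was at 96.3, 102, 144 and 112 CPM in skin and 105 ± 15.9 CPM (SD, n = 4) in stomach, groups that overlap; the sign differs between the mean CPM and the fit (log2 difference -0.58, SE 0.26, edgeR adjusted p = 0.0576). Mst1r, a receptor tyrosine kinase, was at 73.7, 85.5, 81.2 and 71.8 CPM in skin (log2 difference -0.53, SE 0.37, edgeR adjusted p = 0.218 against stomach). The genes farthest from stomach were Myh4, Krt24, Krt2, Serpinb6d, Skint9, Awat1, Panx3 and Myot. Awat1, which makes the wax esters of sebum, was at 103, 89.0, 91.9 and 75.7 CPM in skin and at most 0.401 CPM in the other libraries. Panx3, a pannexin channel of skin and cartilage, was at 74.3, 61.6, 56.5 and 54.1 CPM and 581-fold over ovary (log2 difference 9.89, SE 0.89, edgeR adjusted p = 1.47e-09).

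**Figure D2:**
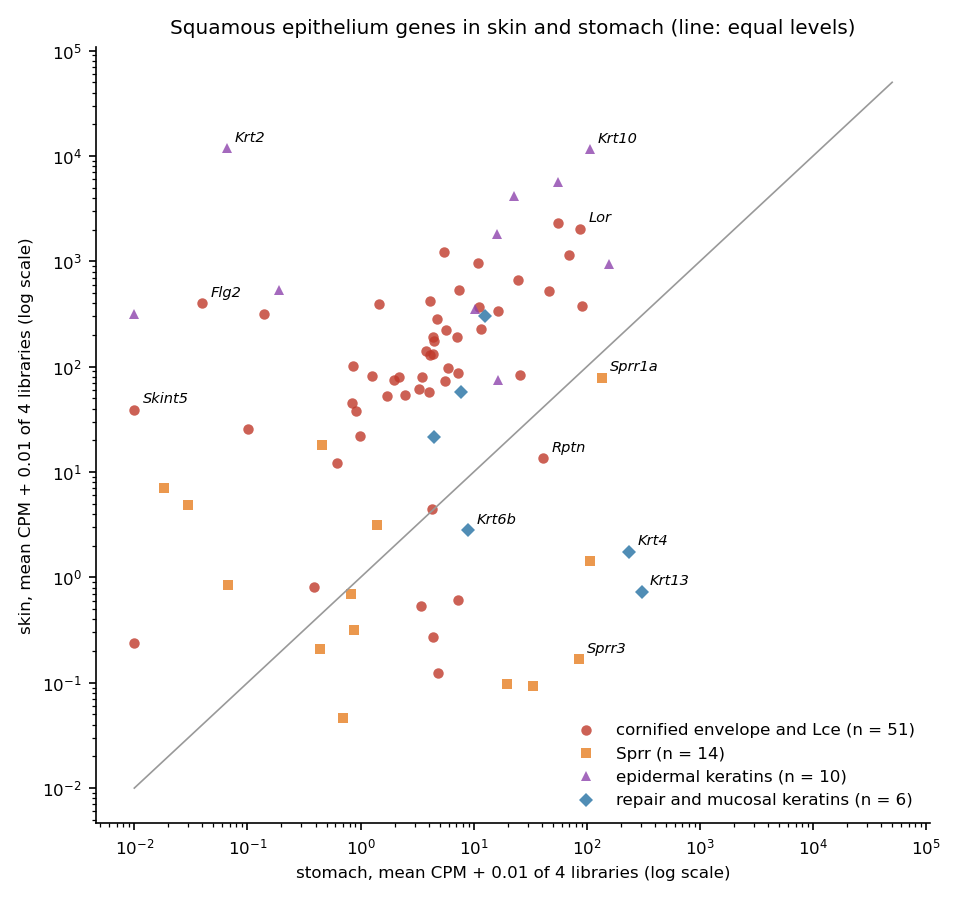
Mean CPM + 0.01 of 4 libraries in stomach (horizontal, log scale) and skin (vertical, log scale) for members of squamous epithelium lists, each list with its own colour; the line marks equal levels. Most points lie above the line, and Krt4, Krt13 and Sprr1a lie below it.

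Desmosomes, the junctions that rivet keratinocytes together, separated into epidermal and other isoforms. Of 15 genes tested 12 were above the mean of the others, 10 were highest in skin, 9 passed against each tissue, and Dsc2 and Pkp2 were lower. Dsg1a, the desmoglein of the upper epidermis, was at 1074, 1005, 1242 and 1076 CPM and 129.9-fold over thymus (log2 difference 7.13, SE 0.35, edgeR adjusted p = 4.16e-20). Dsc3, a desmocollin of the lower layers, was at 972, 904, 1054 and 939 CPM, 12.7-fold over lymph node (log2 difference 3.73, SE 0.38, edgeR adjusted p = 4.56e-11). Pkp1, a plakophilin of stratified epithelium, was at 1282, 1530.0, 1699 and 1619.6 CPM and 29.8-fold over thymus (log2 difference 5.0005, SE 0.82, edgeR adjusted p = 1.22e-06). The isoforms of heart and simple epithelium went the other way. Pkp2 was at 2.54, 3.21, 3.07 and 2.94 CPM in skin, 144 CPM in heart, and under the mean of the other tissues (log2 difference -2.56, SE 0.36, edgeR adjusted p = 1.12e-07), and Dsc2 was at 6.29, 5.75, 7.89 and 7.68 CPM in skin and 205 CPM in colon (log2 difference -1.70, SE 0.26, edgeR adjusted p = 6.1e-07 against the mean). Dsp, desmoplakin, which both kinds of tissue need, was at 2449, 2711, 3152 and 2933 CPM in skin and 998, 717, 897 and 945 CPM in heart. The Dsp libraries do not overlap, yet the fitted difference was not called (log2 difference 0.75, SE 0.54, edgeR adjusted p = 0.232). Dsg2, of simple epithelium and heart, averaged 45.0 CPM in skin and 425 in colon, and was not called against the mean (log2 difference 0.23, SE 0.16, edgeR adjusted p = 0.232).

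Genes that anchor basal cells to the basement membrane were shared with other epithelia, apart from a pair of collagens. Of 11 tested, 10 were above the mean of the others, 5 were highest in skin and 2 passed against each tissue. Col17a1, the collagen of hemidesmosomes, was at 2230.0, 2331, 2396 and 2402 CPM in skin and 147-fold over lung (log2 difference 7.12, SE 0.48, edgeR adjusted p = 1.11e-15). Col7a1, the anchoring fibril collagen, was at 404, 342.9, 363 and 466 CPM, 8.34-fold over spleen (log2 difference 3.10, SE 0.35, edgeR adjusted p = 6.5e-10). Itgb4, the beta subunit of their integrin receptor, was at 419.9, 485, 428 and 483 CPM in skin and 174 to 233 CPM in colon (log2 difference 0.93, SE 0.36, edgeR adjusted p = 0.0276), but did not pass against each tissue (edgeR adjusted p = 0.207). Itga6, its alpha subunit, was at 299, 281, 336.2 and 257 CPM and differed less from lung (log2 difference 0.33, SE 0.18, edgeR adjusted p = 0.11). Perp, a p53 target of desmosomes, was at 2349, 2124, 2574 and 2130.2 CPM, 10.7-fold over stomach (log2 difference 2.71, SE 0.36, edgeR adjusted p = 2.38e-08).

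Most enzymes of the barrier lipids were higher in skin. Of 27 tested, 23 were above the mean of the others, 2 below, 17 highest in skin and 15 higher than in each tissue, with a median ratio of 21.7. Elovl4, which elongates fatty acids to ultra-long chains, was at 1385, 1090.4, 1490.4 and 1254 CPM and 25.6-fold over brain (log2 difference 4.57, SE 0.32, edgeR adjusted p = 8.89e-16). Slc27a4, a fatty acid transporter, was at 722, 671, 577 and 587 CPM, 4.27-fold over colon (log2 difference 1.85, SE 0.12, edgeR adjusted p = 8.04e-16). Alox12b and Aloxe3, the lipoxygenases that oxidise linoleoyl ceramides, averaged 85.0 and 114 CPM, 14.7-fold over stomach and 7.24-fold over brain. Cers3, the ceramide synthase of the epidermis, was at 31.1, 37.0, 52.4 and 33.9 CPM (5.34-fold over stomach, log2 difference 1.72, SE 0.45, edgeR adjusted p = 0.00133), and Pnpla1, which makes acylceramides, was at 41.5, 62.1, 67.3 and 56.6 CPM (26.8-fold over colon, log2 difference 4.54, SE 0.50, edgeR adjusted p = 5.09e-10). Abca12, the lipid transporter of lamellar granules, was highest in skin at 111, 164, 195 and 167 CPM but did not pass against each tissue (edgeR adjusted p = 0.303). The ubiquitous enzymes Sptlc2, of the first step of sphingolipid synthesis, and Asah1, the lysosomal ceramidase, were below the mean of the others, at 74.6, 64.8, 70.7 and 71.1 CPM (log2 difference -0.42, SE 0.07, edgeR adjusted p = 2.66e-06) and 82.7, 71.1, 84.7 and 77.4 CPM (log2 difference -0.44, SE 0.09, edgeR adjusted p = 6.99e-05).

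Sebaceous gland genes were partly shared with ovary and liver. Of 20 tested, 16 were above the mean of the others, Fads2 was below, 9 were highest in skin and 6 passed against each tissue. The 6 were Awat1, Awat2, Dgat2l6, Far2, Elovl3 and Mc5r, of which the first 3 esterify waxes and other lipids. Far2, which reduces fatty acids to the alcohols of waxes, was at 712, 548, 619 and 581 CPM and 22.3-fold over brain (log2 difference 4.36, SE 0.62, edgeR adjusted p = 7e-08), and Elovl3 was at 174, 158, 151 and 127 CPM and 38.4-fold over liver (log2 difference 4.79, SE 1.05, edgeR adjusted p = 0.000123). Scd1, the desaturase of sebum lipids, was at 8739, 7491, 7233 and 6760.0 CPM in skin, but ovary held 28604, 9834, 18003 and 129 CPM, a spread that spans skin (log2 difference -0.41, SE 0.92, edgeR adjusted p = 0.737). Fads2 was at 12.1, 12.7, 11.3 and 15.1 CPM in skin and 405 CPM in liver. Mc5r, the melanocortin receptor of sebocytes, was at 6.52, 7.41, 7.86 and 5.92 CPM, 9.44-fold over brain (log2 difference 3.09, SE 0.77, edgeR adjusted p = 0.000614).

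Kallikreins, which cut the desmosomes of the outermost cells so that they shed, and the inhibitors that hold them back were mostly highest in skin. Of 24 tested, 21 were above the mean of the others, 16 were highest in skin and 15 passed against each tissue, with a median ratio of 35.3. Klk7 was at 186, 301.9, 379 and 286 CPM and 109-fold over stomach (log2 difference 6.07, SE 0.45, edgeR adjusted p = 1.99e-14), and Klk5, which activates it, was at 58.4, 101, 116 and 93.7 CPM and 35.1-fold over stomach (log2 difference 4.46, SE 0.43, edgeR adjusted p = 2.11e-06). Spink5, the inhibitor lost in Netherton syndrome, was at 262.1, 343.1, 407 and 323.5 CPM, 14.9-fold over stomach (log2 difference 3.23, SE 0.48, edgeR adjusted p = 9.62e-07). All 3 were lowest in replicate 1 and highest in replicate 3. Serpinb3b was at 162, 128, 133 and 134 CPM in skin and at most 0.795 CPM elsewhere, while its near copy Serpinb3a averaged 3.07 CPM. Slpi, an elastase inhibitor of mucosa, averaged 3.52 CPM in skin and 73.3 CPM in spleen.

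Cytokine genes of the interleukin 1 family were present with their receptors and decoys. Of 15 tested, 14 were above the mean of the others, 8 were highest in skin, 6 passed against each tissue, and Il1b was below. Il1r2, a decoy receptor for interleukin 1, was at 127, 119.9, 156 and 102 CPM, 26.3-fold over thymus (log2 difference 4.82, SE 0.34, edgeR adjusted p = 1.85e-15). Il1rl2, the interleukin 36 receptor, was at 113, 116, 128 and 103 CPM (5.32-fold over lung, log2 difference 2.33, SE 0.24, edgeR adjusted p = 9.65e-11), and Il1f5, its antagonist, was at 71.2, 112, 142 and 100.2 CPM (23.5-fold over stomach, log2 difference 3.89, SE 0.55, edgeR adjusted p = 1.35e-06). Il33, an alarmin, was at 88.8, 98.6, 113 and 84.8 CPM in skin and 104 ± 12.4 CPM (SD, n = 4) in lung, which did not differ by the test (log2 difference -0.20, SE 0.35, edgeR adjusted p = 0.661). Il1b, an inflammatory cytokine of myeloid cells, was at 0.614, 1.32, 0.935 and 0.420 CPM in skin and 26.7 CPM in spleen, and below the mean (log2 difference -1.59, SE 0.34, edgeR adjusted p = 9.04e-05).

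Antimicrobial genes differed in direction. Of 16 tested from a list of 20, 8 were above the mean of the others, Pglyrp1 was below, and 4 passed against each tissue; the median ratio was 0.580, while the median fitted log2 difference from the mean of the others was 1.05, so the ratio and the fitted value point in opposite directions. The 4 were Defb6, Defb14, Pglyrp3 and Pglyrp4. Defb6, a beta-defensin, was at 70.3, 80.6, 89.6 and 85.1 CPM and 32.1-fold over thymus (log2 difference 5.12, SE 0.42, edgeR adjusted p = 7.28e-10), and Pglyrp4, a peptidoglycan recognition protein, was at 17.8, 21.03, 25.04 and 21.2 CPM (log2 difference 5.28, SE 0.46, edgeR adjusted p = 1.72e-09). S100a8 and S100a9, which mark neutrophils and inflamed keratinocytes, averaged 2.72 and 4.13 CPM in skin and were not called against the mean. Gasdermins, pore-forming proteins of cell death, were split too. Gsdma was at 63.9, 97.0, 115 and 100.03 CPM, 13.7-fold over stomach (log2 difference 3.10, SE 0.37, edgeR adjusted p = 5.53e-09). Gsdma2, its neighbour, was at 0.379, 8.60, 1.20 and 0.867 CPM in skin and 1213 CPM in stomach, and its highest skin value is again replicate 2, the library with stomach transcripts; their part in this value was not tested. Gsdmd and Gsdmc4 were below the mean of the others.

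Regulators of the epidermis and its appendages were broadly higher. Of 32 transcription factors tested, 30 were above the mean of the others and none below, 22 were highest in skin and 12 passed against each tissue, with a median ratio of 11.1. Trp63, the p63 regulator of stratified epithelia, was at 333.8, 316.1, 370.2 and 312.9 CPM in skin and 43.3, 71.9, 56.0 and 50.05 CPM in thymus (6.03-fold, log2 difference 2.70, SE 0.44, edgeR adjusted p = 1.32e-06). Grhl1 and Grhl3, grainyhead factors of the barrier, were at 252, 286, 319.3 and 258 CPM and 54.5, 84.5, 109 and 81.7 CPM, 11.1-fold and 24.99-fold over stomach. Zfp750, which p63 turns on in differentiation, was at 135, 155, 206 and 216 CPM, 14.1-fold over colon (log2 difference 3.59, SE 0.55, edgeR adjusted p = 5.66e-07). Tfap2c, an AP-2 factor, was at 77.6, 93.1, 89.2 and 81.2 CPM and 64.7-fold over lymph node (log2 difference 6.33, SE 0.86, edgeR adjusted p = 3.4e-07), and Hoxc13, the homeobox factor of hair and nail, was at 6.18, 6.94, 6.90 and 7.92 CPM against 0.0520 CPM in thymus. Some regulators were shared. Klf4 was at 641, 640.2, 776 and 646 CPM in skin and 431 to 702 CPM in colon (log2 difference 0.03, SE 0.22, edgeR adjusted p = 0.95), and Gata3 at 152, 201, 195 and 209 CPM in skin and 77.2 to 104 CPM in thymus (log2 difference 1.27, SE 0.61, edgeR adjusted p = 0.0621). Lef1 and Satb1, which were not called against the mean, averaged 4.67 and 39.1 CPM in skin and were much higher in thymus (333.6 and 1988 CPM).

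Factors that pattern the dermis and the body axis differed in direction. Of 20 tested, 12 were above the mean of the others, 4 below, 5 highest in skin and 4 higher than in each tissue. Their median ratio was 0.0923 and their median fitted log2 difference 2.10, so the ratio and the fitted value point in opposite directions. Twist1, Twist2, Prrx2 and Tbx15, factors of dermal fibroblasts, were higher in skin than in each tissue, and Tbx15 was at 93.4, 93.8, 81.9 and 88.2 CPM, 8.90-fold over lymph node (log2 difference 3.21, SE 0.67, edgeR adjusted p = 7.49e-05). Prrx1, at 174, 126, 152 and 169 CPM, was highest in skin but did not pass against each tissue (edgeR adjusted p = 0.343). The 4 below the mean were Hoxa5, Hoxa7, Hoxb5 and Hoxc6. Because of that contrast 38 Hox genes were listed, after the values had been seen and with no test. In skin 29 of the 38 were under 1 CPM and 9 had no count in 4 libraries: Hoxa9, Hoxa10, Hoxa11, Hoxb13, Hoxc8, Hoxc10, Hoxd1, Hoxd12 and Hoxd13. Above 1 CPM were Hoxa2 (6.94 to 10.3 CPM), Hoxa3 (1.73 to 2.69), Hoxa4 (1.76 to 2.33), Hoxb2 (4.05 to 5.04), Hoxb3 (1.46 to 1.80), Hoxd8 (10.5 to 13.7), Hoxd9 (9.39 to 10.7), Hoxd10 (1.06 to 1.57) and Hoxc13. Of these genes, Hoxa2, Hoxc12 and Hoxc13 had their highest mean of the 12 tissues in skin, of which Hoxc12 rested on 7 counts. Hox genes are known to keep a record of a cell's position along the body; the labels do not name where this skin was taken.

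**Figure D3:**
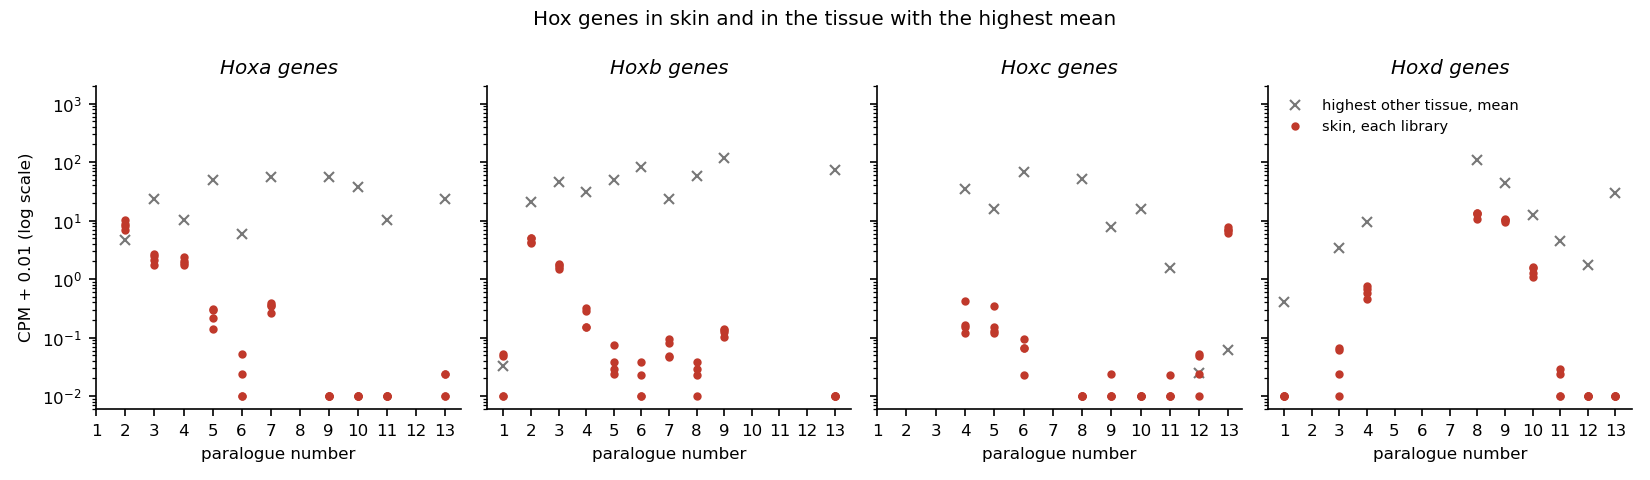
CPM + 0.01 on a log axis for 38 Hox genes in 4 panels, one for each cluster, by paralogue number; red points are the 4 skin libraries and grey crosses the highest mean among the 11 other tissues. Most red points lie near the floor of the axis, and those of Hoxa2 and Hoxc13 lie above the crosses.

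Signals of hair growth were mostly above the mean of the other tissues. Of 25 tested, 22 were above the mean of the others, Ptch1 and Bmp6 were below, 8 were highest in skin and 2, Wif1 and Wnt10a, passed against each tissue. Wif1, a secreted Wnt inhibitor, was at 434, 372, 428 and 482 CPM, 33.4-fold over heart (log2 difference 4.30, SE 0.59, edgeR adjusted p = 4.44e-08). Lgr6, a marker of follicle stem cells, was at 86.8, 81.4, 87.0 and 100.1 CPM in skin and 66.9 to 131 CPM in heart, and the fitted difference is negative although the skin mean is the higher one (log2 difference -0.78, SE 0.56, edgeR adjusted p = 0.231). Shh, the ligand of growing follicles, averaged 0.0955 CPM in skin. Keratins of the hair itself followed. Of 24 listed 20 were tested, and 11 were highest in skin, but apart from Krt79, of the follicle opening (844, 801, 794 and 863 CPM), and Krt75, of the companion layer (23.5, 23.6, 24.9 and 26.7 CPM), their means were under 5 CPM. Krt71, Krt25 and Krt27 of the inner root sheath were at 14.5, 1.06, 1.39 and 1.30 CPM, 9.85, 1.14, 1.13 and 1.19 CPM and 4.89, 0.821, 0.666 and 0.686 CPM, so replicate 1 alone carried most of each. Without replicate 1, 9 of the hair keratins were highest in skin, and 5 were when a gene had to reach 1 CPM in at least 4 libraries. Among 57 keratin-associated protein genes, which make the matrix of the hair shaft, 53 did not pass the filter, and the 57 together summed to 20.3, 13.7, 11.8 and 11.9 CPM, again highest in replicate 1. Most of that sum was Krtap3-2, which averaged 10 CPM or more in skin, where the sum averaged 14.4 CPM.

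Pigment cell genes were detectable at a low level. Of 16 tested, 13 were above the mean of the others and 8 were highest in skin, and 4 passed against each tissue: Tyrp1, Pmel, Slc45a2 and Mc1r. Tyrp1, an enzyme of black pigment, was at 24.8, 13.98, 17.8 and 24.4 CPM and 53.02-fold over heart (log2 difference 5.001, SE 0.81, edgeR adjusted p = 1.82e-06). Dct was at 33.8, 23.8, 24.9 and 35.1 CPM in skin and 6.25, 17.7, 14.8 and 12.7 CPM in liver (log2 difference 0.06, SE 0.66, edgeR adjusted p = 0.971). In 5 libraries of cultured melanocytes from the same series the median was 14963 CPM for Tyrp1 and 16683 CPM for Dct. Krt2 had no count in those 5 libraries. Kit, Ednrb and Pomc were below the mean of the other tissues, and Kit was at 27.7, 25.5, 26.3 and 24.3 CPM in skin and 231 CPM in lung.

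Dermal matrix genes were higher in skin as a group, with ovary and lung next. All 30 tested were above the mean of the others, 21 were highest in skin and 8 passed against each tissue, with a median ratio of 4.88. Col1a1, a chain of the main dermal collagen, was at 3929, 2627, 2304 and 4559 CPM in skin and 1977, 980.5, 1113 and 515 CPM in ovary (2.93-fold, log2 difference 1.71, SE 0.33, edgeR adjusted p = 3.58e-05). Col3a1 was at 4416, 2413, 2608 and 4638 CPM in skin and 2689, 1315, 1564 and 908 CPM in ovary, groups that overlap although the test passed (log2 difference 1.31, SE 0.31, edgeR adjusted p = 0.00044). Replicates 1 and 4 were the higher pair for both. Dcn, the proteoglycan decorin, was steadier at 3299.6, 2887, 2793 and 2766 CPM (2.83-fold over ovary, log2 difference 1.81, SE 0.33, edgeR adjusted p = 1.33e-05), and Fmod, fibromodulin of dense connective tissue, was at 615, 662, 504 and 670.4 CPM (10.04-fold over lymph node, log2 difference 3.38, SE 0.55, edgeR adjusted p = 1.16e-06). Fn1, fibronectin, averaged 848 CPM in skin and 1999.5 CPM in liver. Of 14 fibroblast genes, 11 were above the mean, Dpp4 was below and 1, Crabp1, passed against each tissue. Pdgfra, which marks fibroblasts in many organs, was at 140.3, 121, 126 and 117 CPM in skin and 433 CPM in lung.

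Cartilage transcripts were also present, in a list of 14 added after the values had been seen and given without a test. Their summed level was 1245, 1271, 1187 and 1604 CPM in skin and 181 CPM in ovary, the next tissue. Acan, the aggrecan core protein, was at 264, 266, 274 and 312.4 CPM, Chad, chondroadherin, at 293, 406, 338.7 and 434 CPM and Col2a1, the cartilage collagen, at 33.9, 32.0, 28.2 and 71.7 CPM. All 4 skin libraries held them, and replicate 4 had the highest value of Acan, Chad and Col2a1. Matn1, another cartilage gene, had 2 counts in 4 skin libraries.

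Fat cell genes were in part above the mean of the other tissues, and few were highest in skin. Of 16 tested, 9 were above the mean of the others and none below, Cebpa was the 1 gene highest in skin, and none passed against each tissue; the median ratio was 0.679, while the median fitted log2 difference from the mean was 1.80, again in opposite directions. Adipoq, the hormone of fat cells, was at 56.2, 53.5, 47.98 and 45.1 CPM in skin and 1419, 475, 846 and 0.0685 CPM in ovary. Plin1, which coats fat droplets, was at 60.3, 77.05, 63.4 and 75.5 CPM in skin and 488 ± 394 CPM (SD, n = 4) in ovary. The ovary libraries thus ranged widely, and skin lay within a narrow band.

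Transcripts of skeletal muscle were abundant in all 4 skin libraries. All 25 genes tested were above the mean of the others, 18 were highest in skin and 8 passed against each tissue, with a median ratio of 24.7. Myh4, the myosin of the fastest fibres, was at 739, 1046, 583 and 571 CPM and 330.5-fold over thymus (log2 difference 8.52, SE 0.93, edgeR adjusted p = 1.89e-08). Myh1, of another fast fibre type, was at 1076, 1453, 1146 and 1278 CPM and Atp2a1, the calcium pump of fast muscle, at 1239, 1918, 1147 and 1051 CPM; for both the next tissue was liver, at 23.8 ± 47.5 and 20.4 ± 40.6 CPM (SD, n = 4), where a single library held 95.04 and 81.3 CPM. Myod1, the muscle determination factor, was at 3.33, 4.50, 3.30 and 3.46 CPM. Acta1, skeletal actin, was at 727, 1262, 771 and 897 CPM in skin and 251 to 404 CPM in heart, a difference not called after rescaling (log2 difference 0.45, SE 1.13, edgeR adjusted p = 0.77). Replicate 2 was highest for Myh4, Myh1, Atp2a1, Myod1 and Acta1, and its summed muscle level was 10149 CPM against 6735 to 6957 CPM in the others. Without replicate 2, 16 of the 25 were highest in skin. The labels do not say which layers the skin pieces held.

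Of 10 cardiac and 7 smooth muscle genes none was highest in skin. Only 5.56% of all genes were, so lists this short say little on that count. Of the 10 cardiac genes 3 were above and 3 below the mean of the others, close to the shares of all genes (30.4% and 27.4%). Myh6, the main myosin of the adult mouse heart, was at 0.392, 0.690, 0.609 and 0.630 CPM in skin and 26063 CPM in heart, and Nppa, the atrial hormone, had no count in skin. Of the 7 smooth muscle genes 5 were below the mean, where 27.4% of all genes were. Acta2 was at 55.5, 59.9, 51.4 and 56.7 CPM in skin and 2065 CPM in stomach, and below the mean of the others (log2 difference -2.04, SE 0.37, edgeR adjusted p = 7.77e-06). Actg2 was at 1.14, 5.36, 0.779 and 1.11 CPM, and its value in replicate 2 stood above the other 3 skin libraries.

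Genes of resident immune cells were highest in skin in a few cases. Of 11 Langerhans and myeloid genes 8 were above the mean of the others, 2 were highest in skin and none passed against each tissue. Their median ratio was 0.773 and their median fitted log2 difference 1.06, so the ratio and the fitted value point in opposite directions. Cd207, langerin, was at 16.6, 16.1, 20.2 and 21.7 CPM and 4.19-fold over lymph node (log2 difference 2.13, SE 0.77, edgeR adjusted p = 0.0156), but did not pass against each tissue (edgeR adjusted p = 0.704). Of 16 T cell genes 11 were above the mean and 4 below. Their median ratio was 0.268 and their median fitted log2 difference 1.14, again in opposite directions. The T cell list summed to a mean of 80.2 CPM in skin and 4147 CPM in thymus. Tcrg-V5, the gamma chain segment of the dendritic epidermal T cells of mice, was the single one to pass against each tissue, at 0.510, 1.98, 2.14 and 1.86 CPM in skin and 0.126 CPM in lymph node (log2 difference 3.73, SE 0.63, edgeR adjusted p = 4.76e-06). Trdc, the delta constant segment, was at 6.70, 16.8, 18.4 and 19.01 CPM in skin, lowest in replicate 1, and 145 CPM in thymus. Cd8a, of conventional T cells, was at 0.144 to 0.317 CPM in skin and 1499 CPM in thymus. Of 10 mast cell genes tested, 9 were above the mean and highest in skin and 6 passed against each tissue, with a median ratio of 20.8. Mcpt4, a chymase of connective tissue mast cells, was at 92.0, 73.5, 75.4 and 85.4 CPM and 4.20-fold over lymph node (log2 difference 2.11, SE 0.63, edgeR adjusted p = 0.00369), and Mrgprb2, their receptor for basic secretagogues, was at 6.34, 6.55, 7.92 and 6.02 CPM (10.2-fold over lymph node, log2 difference 3.39, SE 0.63, edgeR adjusted p = 1.43e-05). Hdc, the histamine enzyme, averaged 8.12 CPM in skin and 111 CPM in ovary.

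Genes of peripheral nerve were above the mean of the other tissues, and those of vessels and blood were mostly below it. All 10 Schwann cell genes were above the mean of the others, and 3 were highest in skin. Ngfr, a neurotrophin receptor of Schwann cells and sensory neurons, was at 47.2, 60.1, 57.5 and 65.3 CPM and 3.12-fold over lymph node (log2 difference 1.71, SE 0.44, edgeR adjusted p = 0.000971), and it passed against each tissue (edgeR adjusted p = 0.0116). Mbp, of central and peripheral myelin, was at 242, 235, 216 and 202 CPM in skin and 3512 CPM in brain. Of 7 endothelial genes 6 were below the mean and none above. Pecam1 was at 88.0, 85.0, 80.7 and 75.5 CPM in skin and 937 CPM in lung, and below the mean (log2 difference -0.89, SE 0.12, edgeR adjusted p = 1.48e-08). Of 5 red cell genes 3 were below the mean. Hbb-bs, a beta-globin, was at 123, 24.2, 62.9 and 61.3 CPM, highest in replicate 1 and lowest in replicate 2, and its call was lost when replicate 2 or replicate 3 was left out.

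Genes of simple epithelium, breast and cell division were mostly lower or not called. Krt8, Krt18, Krt19 and Krt7, the keratins of simple epithelia, were below the mean of the others, and Krt8 was at 7.53, 13.4, 4.78 and 5.06 CPM in skin, highest in replicate 2, and 3544 CPM in colon (log2 difference -3.28, SE 0.67, edgeR adjusted p = 5.55e-05 against the mean). Krt20, which marks Merkel cells in skin, was at 1.28, 2.46, 1.19 and 1.72 CPM. Of 7 genes tested in the list of Merkel cells and simple epithelium, 4 were below the mean of the others. Only 1 was above it, Atoh1, a Merkel cell gene. Of 7 mammary gland genes tested, 1 was above the mean of the others, 1 was below and none was highest in skin. The list summed to 37.3, 28.9, 31.0 and 28.7 CPM in skin replicates 1 to 4, a sum carried by Prlr and Lao1. The caseins Csn1s1, Csn1s2a, Csn2 and Csn3 and the milk gene Lalba had no count in the 4 skin libraries. Of 15 cell cycle genes 5 were above the mean, close to the share of all genes (30.4%), and Mcm2 was below. Mki67, of dividing cells, was at 84.4, 73.1, 81.2 and 125 CPM in skin, highest in replicate 4, and 705 CPM in thymus (log2 difference 1.25, SE 0.29, edgeR adjusted p = 0.000295 against the mean).

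Retinoid and vitamin D genes and sensory signals added a few more skin genes. Of 18 retinoid and vitamin D genes 12 were above the mean, Aldh1a1 and Aldh1a2 were below, and 5 passed against each tissue: Rdh1, Rdh12, Crabp2, Rarg and Cyp26b1. Rarg, the retinoic acid receptor of the epidermis, was at 354, 398, 345.7 and 393 CPM, 3.12-fold over lung (log2 difference 1.56, SE 0.14, edgeR adjusted p = 1.3e-12), and Cyp26b1, which breaks retinoic acid down, was at 391, 393, 358 and 332.2 CPM, 11.3-fold over lymph node (log2 difference 3.53, SE 0.59, edgeR adjusted p = 1.9e-06). Dhcr7, which uses up the precursor of vitamin D, was at 136, 177, 189.6 and 181 CPM in skin. Of 15 itch and sensory genes 13 were above the mean, Il4ra was below and 1 passed against each tissue, Il34, the keratinocyte cytokine that maintains Langerhans cells, at 60.97, 67.9, 57.8 and 71.7 CPM (3.45-fold over spleen, log2 difference 1.89, SE 0.29, edgeR adjusted p = 3.84e-07). Trpv3, a warmth channel of keratinocytes, was at 46.2, 45.9, 56.3 and 44.8 CPM in skin; colon was next because of a single library at 63.04 CPM (log2 difference 1.34, SE 0.70, edgeR adjusted p = 0.101).

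**Figure D4:**
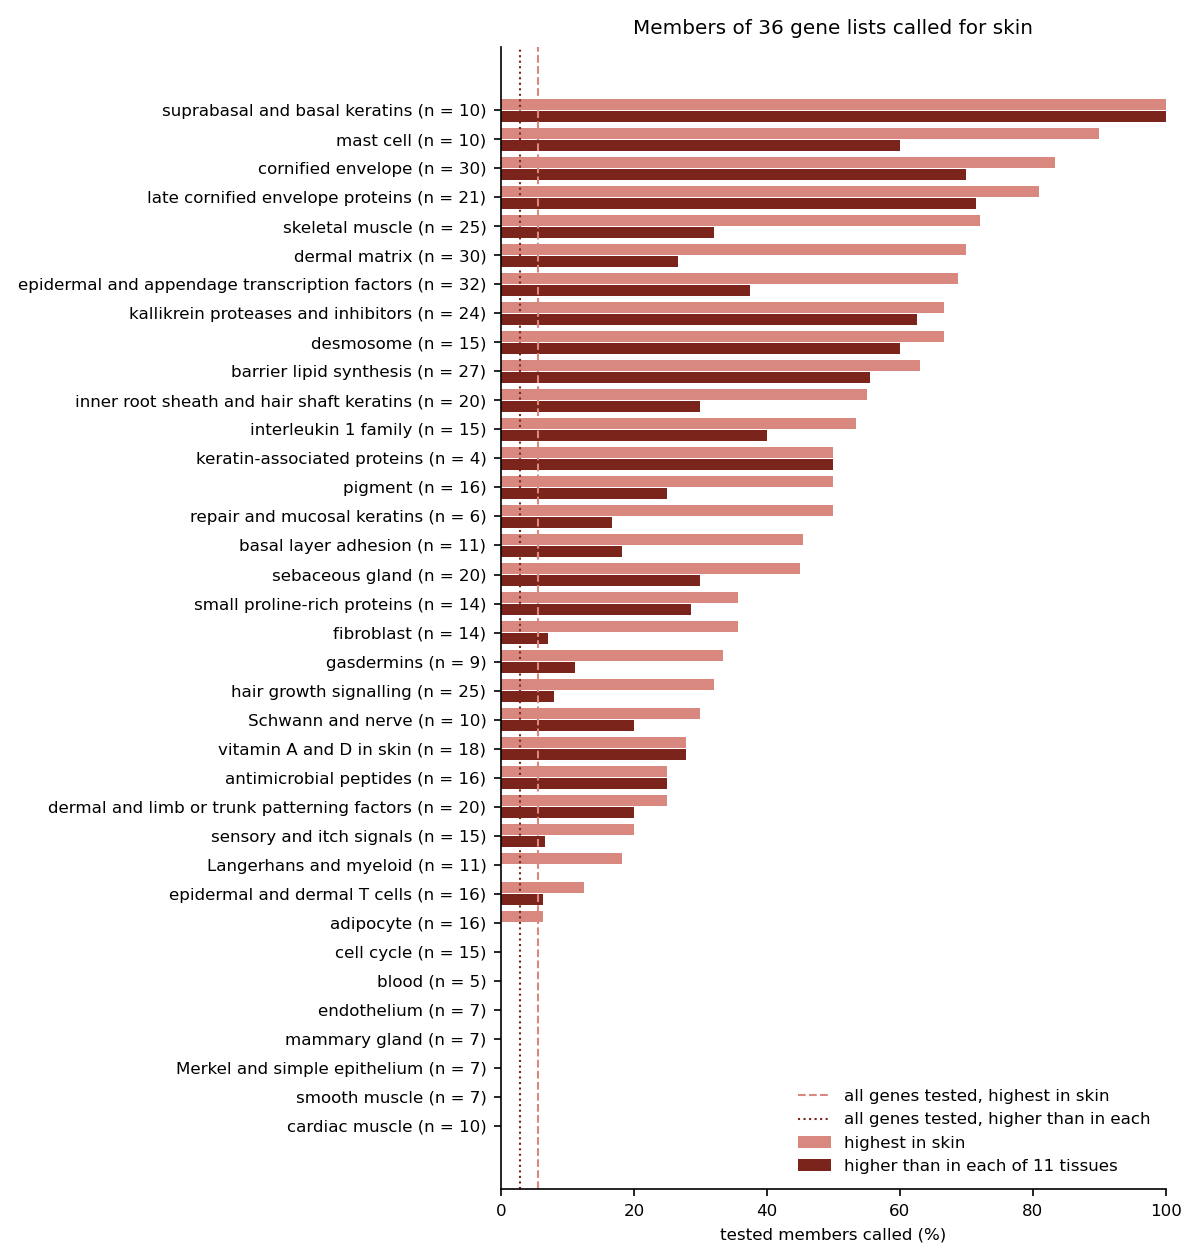
Share of tested members (%) of 36 gene lists that were highest in skin (light bars) or higher than in each of 11 tissues (dark bars); the lines mark the shares over all genes tested, 5.56% and 2.87%. The epidermal keratins reach 100% on both, and endothelium, blood, cell cycle, smooth muscle and cardiac muscle are at 0.

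Genes lower in skin than in each of the 11 tissues numbered 145 (0.553%), and most differences were small. After the TMM rescaling the median gene lay 1.6-fold under the lowest of the other tissues, and 43 were at least 2-fold under it. The count leans on that rescaling: in plain CPM 71 of the 145 had their lowest mean in skin. The named genes with the largest difference from the mean were Hoxb5, Cd300e, Lilra5, Il21r, Ifit1bl1, Cadps2, Rgl3, Tmem108, Cd38 and Fpr2. Cd38, an ectoenzyme of immune cells, was at 2.27, 1.60, 1.86 and 1.75 CPM in skin and 181 CPM in spleen (log2 difference -4.22, SE 0.22, edgeR adjusted p = 1.15e-19 against the mean; edgeR adjusted p = 6.27e-12 against each tissue). Rgl3, a Ras effector, was at 1.37, 1.31, 1.11 and 1.43 CPM in skin and 80.8 CPM in kidney (log2 difference -4.34, SE 0.19, edgeR adjusted p = 3.22e-22 against the mean). Il21r, the receptor of a T cell cytokine, was at 0.248, 0.336, 0.241 and 0.378 CPM in skin and 256 CPM in lymph node (log2 difference -4.67, SE 0.24, edgeR adjusted p = 6.28e-20 against the mean). Hoxb5 was at 0.0653, 0.0187, 0.0142 and 0.0280 CPM in skin and 48.7 CPM in colon (log2 difference -6.76, SE 0.70, edgeR adjusted p = 7.93e-11 against the mean). Lilra5, Cd300e and Fpr2 are receptors of myeloid cells, and their skin levels stayed at 0.0261 to 0.113, 0.0140 to 0.0261 and 0 to 0.0709 CPM.

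The 4 skin libraries differed among themselves in several of these lists. Replicate 1 had the least of the upper epidermis: the cornified envelope list summed to 9659.8, 13286, 15385 and 14364 CPM, the late cornified envelope genes to 1198, 1723, 1982 and 2029 CPM and the small proline-rich genes to 69.1, 125, 156 and 112 CPM. It was highest for the inner root sheath and hair shaft keratins, at 917, 836, 832 and 900.1 CPM, and for blood genes, at 220.1, 53.9, 113 and 124 CPM. Most of that keratin sum was Krt79, of the follicle opening, at 844, 801, 794 and 863 CPM and highest in replicate 4. Krt71, Krt25 and Krt27 of the inner root sheath were highest in replicate 1. The hair growth signals, at 1085, 1053, 1115 and 1222 CPM, were highest in replicate 4. Replicates 1 and 4 had the most dermal matrix, at 31202, 23125, 22138 and 32017 CPM over the 4. Pigment genes followed the matrix, at 209, 158, 169 and 207 CPM. The basal adhesion genes moved little, at 5546, 5725, 5819.7 and 5863 CPM. Among genes highest in skin of at least 10 CPM, the widest ranges were those of Fosb, Sprr1b, Scd3, Myh7, Flg, Krt77, Myh2, Krt16, Col2a1 and Klk9. Fosb, an immediate early gene, was at 27.7, 50.6, 101 and 5.11 CPM, lowest in replicate 4, the skin library whose title opens with the code D804. Scd3, a desaturase of sebaceous glands, was at 11.1, 9.42, 29.7 and 38.4 CPM, and Myh2, a fast myosin, at 91.2, 218, 205 and 237 CPM, lowest in replicate 1.

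**Figure D5:**
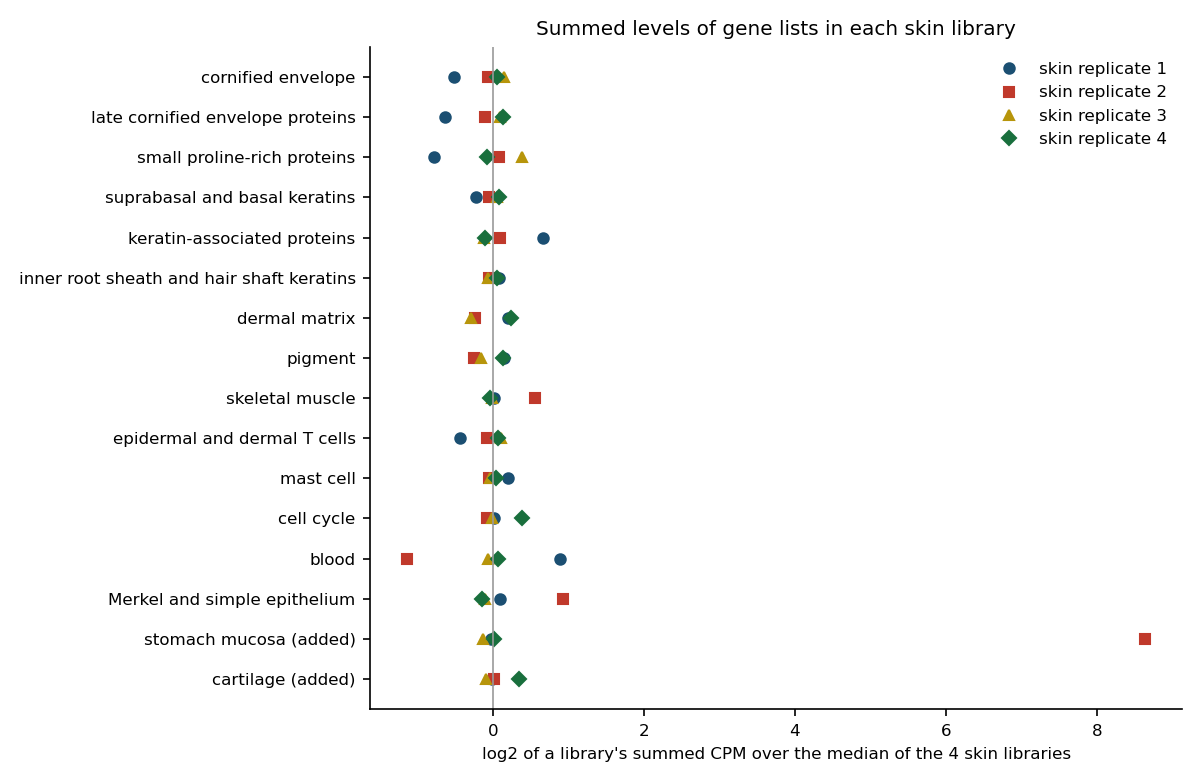
Log2 of each skin library's summed CPM over the median of the 4 skin libraries, for gene lists (rows), with a symbol for each replicate. Replicate 1 lies lowest for the envelope lists and highest for blood, replicate 2 lies far to the right for stomach mucosa, and replicates 1 and 4 lie right for dermal matrix.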

How the data were processed

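The authors' deposited table holds raw read counts per gene; Trim Galore, STAR, HTSeq and the mm10 build are named in the submitters' processing notes, and the strand setting of the counting is not given in the sources used here. GENCODE vM21 gave a symbol for 53274 of 53379 gene IDs. Counts of 48 libraries (53591239 to 254103370 each) were fitted with edgeR 4.0.16 in R 4.3.3 (TMM scaling, its filter by expression within tissues, 26242 genes), with terms for tissue and for the code that opens each library's label, called the run here, D812 (40 libraries) or D804 (8, among them skin replicate 4). Quasi-likelihood F tests on 35 residual degrees of freedom were adjusted over all genes, and SEs were taken from the F statistic. The scripts were tested on simulated data.

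Genes named were the 15 highest and 15 most different among those highest in skin, 10 of those lower than each tissue, up to 6 members of each list by level plus those called the opposite way, 10 with the largest range over skin libraries, 8 nearest to and 8 farthest from stomach, and 8 most like Krt2; other genes were chosen after their values had been seen, and some genes are not reported here. The members, lists and tests were chosen with earlier results of these data known. Promoters came from RefSeq (GRCm38.p6). Alternatives were another scaling, other filters, DESeq2 1.42.0, a 2-fold minimum, no run term, run D812 alone, a replicate block and libraries left out.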

Additional observations from a re-analysis of the deposited data

Results flagged for a closer look

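Among the 4 skin libraries, 1 lay far from the other 3 in 6 of 39 list sums and in 17 of 170 genes described, by the gap of the extreme library over the whole range, set against Dixon's 95% critical value for 4 samples; chance alone flags about 1 in 20, genes of 1 list are not independent, and several items (the stomach mucosa list, Pgc, Alb, Snap25 and the genes of widest range) were picked for their spread over these libraries, so the tally is not to be read against chance.

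Replicate 2 was the high library for stomach mucosa (ratio 0.99975), skeletal muscle (0.935), Merkel and simple epithelium (0.841) and retinoid and vitamin D genes (0.941), the last at 1440.2, 1516, 1436 and 1435 CPM in replicates 1 to 4. Its high genes were Pgc (0.99982), Actg2 (0.922), Gsdma2 (0.900), Krt13 (0.843) and Myod1 (0.871). Pgc, Actg2, Gsdma2 and Krt13 were all higher in stomach than in skin, while Myod1, a muscle factor, was not. Replicate 1 was the high library for the inner root sheath keratins Krt25 (0.994), Krt71 (0.976) and Krt27 (0.963), and the low one for Krt5 (0.966), Krt17 (0.845) and Aloxe3 (0.832), a lipoxygenase of the barrier. Replicate 3 was high for Klf4 (0.960), Trpv3 (0.882) and Sprr2a3 (0.862). Replicate 4, the skin library of run D804, was high for cell cycle genes (0.831), at 399.6, 375, 394 and 521 CPM, for Langerhans and myeloid genes (0.873), at 1746, 1697, 1732 and 2082 CPM, and for Col2a1 (0.869). Alb (0.988), of liver, was high in replicate 2 and Snap25 (0.929), of nerve endings, in replicate 3. With 1 skin library in run D804, the run and the animal cannot be told apart. The part of the stomach transcripts in the other values of replicate 2 was not tested.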

How the results depend on the processing

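The 7 counts over all genes stayed within 1.5 times their main value under another scaling, DESeq2, no run term, run D812 alone and each library left out, and no result reversed its direction. With a 2-fold minimum in the test (edgeR's glmTreat), 3915 genes were higher and 1838 lower than the mean of the others, 435 were higher and 9 lower than in each tissue, and 3667 were higher and 3699 lower than in stomach; there 68.05% of calls against the mean were higher, against 52.6% in the main test. With no filter on low counts 2264 genes were highest in skin, 1451 of them shared with the main 1458. Leaving out 1 library of skin, ovary, stomach or thymus in turn gave 7483 to 8223 genes higher and 6515 to 7354 lower than the mean, 1478 to 1517 highest in skin, 674 to 783 higher and 110 to 152 lower than in each tissue, and 7132 to 7858 higher and 7321 to 7957 lower than in stomach. In these fits the filter was run anew and passed 26848 to 26966 genes, against 26242 in the main test, so the sets of genes differ. The other 8 tissues were not left out library by library. DESeq2 shared 651 of the 753 genes higher than in each tissue, and run D812 alone 636.

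With sets of 12 consecutive library numbers as a replicate block, the fit called 7970 genes higher and 7185 lower than the mean, 1456 highest in skin, 757 higher and 144 lower than in each tissue, and 7712 higher and 7771 lower than in stomach. Each set held 1 library of each of the 12 tissues, but the labels name nothing that such a set shares. Same-set libraries of skin and another tissue correlated at -0.0959 to 0.122 in their deviations, with 3 of 44 pairs above 0.1. The best match among the 4 sets was the own set in 23 of 44, a hint from the data that some libraries of a set share something. Because most pairs fell short of 0.1, the sets were not taken as pairs. The cause of any of these shifts was not tested. Counts of list members highest in skin moved by more than 1.5 times for the keratin-associated proteins (2 in the main test, 45 with no filter, 1 with at least 1 CPM in 4 libraries or under DESeq2, 4 in run D812 alone), and with that 1 CPM filter for the hair keratins (11 to 5) and skin T cell genes (2 to 1). The named genes were checked for their call against the mean in each setting. In 87 of these checks the call was lost, among them Scd1 under DESeq2. In 17 a call was gained, and 6655 were unchanged. Tests cannot speak of the 53 keratin-associated genes under the filter, and a gene with no count in skin may lie up to 0.011 CPM.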

Other observations

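Outside the gene lists, several genes, among them metabolic enzymes, were higher in skin than in each other tissue; they were picked from the ranked folds after the values had been seen. Sdr16c6, a short-chain dehydrogenase, was at 435, 294, 366 and 311.9 CPM in skin, 657-fold over thymus (log2 difference 9.41, SE 0.70, edgeR adjusted p = 1.13e-10), and its neighbour Sdr16c5 was at 101, 91.1, 115 and 113 CPM, 137-fold over stomach (log2 difference 6.42, SE 0.51, edgeR adjusted p = 3.03e-08). Cyp2b19, a cytochrome P450 of keratinocytes that oxidises arachidonic acid, was at 289.8, 298, 337.7 and 305.5 CPM, 123-fold over thymus (log2 difference 7.05, SE 0.45, edgeR adjusted p = 8.38e-13). Anxa8, a calcium-dependent membrane-binding annexin, was at 1634, 1811, 1787 and 1586 CPM and 60.1-fold over ovary (log2 difference 6.398, SE 0.82, edgeR adjusted p = 2.09e-08). Oas1f, of the oligoadenylate synthetase family of antiviral sensors, was at 111, 112, 129 and 119 CPM and 166-fold over thymus (log2 difference 7.49, SE 0.57, edgeR adjusted p = 5.31e-14).

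A pair of secreted proteins studied mostly in the eye were also among these genes. Myoc, myocilin, was at 1463, 1180.5, 1045 and 1001 CPM in skin and 51.7-fold over ovary (log2 difference 5.95, SE 0.59, edgeR adjusted p = 5.72e-11), and Angptl7, an angiopoietin-like protein, was at 526, 465, 430.1 and 302.1 CPM and 42.9-fold over heart (log2 difference 4.80, SE 0.56, edgeR adjusted p = 1.45e-09). Myh3, the myosin of embryonic muscle, was at 78.0, 115, 73.95 and 105 CPM in skin, 94.1-fold over thymus (log2 difference 6.65, SE 0.49, edgeR adjusted p = 5.96e-15).

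Transcripts of other organs were also looked for in the 4 skin libraries. Alb, the albumin of liver, was at 3.04, 21.1, 3.26 and 3.25 CPM, again highest in replicate 2, against a mean of 97562 CPM in liver. Snap25, a protein of nerve endings, was at 0.327, 0.560, 3.60 and 0.364 CPM, highest in replicate 3, against 2381 CPM in brain.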
